A study of Mus musculus with 1248 samples.

Results

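The collagen chain genes are the genes whose symbols have the form Col, a type number, the letter a and a chain number, and 44 of the 40756 genes in the count table match. They were described in cells of 4T1, a mammary carcinoma line of the mouse, and of 4T1.2, a line derived from it; both carried firefly luciferase and mCherry, and both were given to female BALB/c mice. Cells positive for mCherry were sorted 1 to a well from the hindlimbs, called bone below, at day 4, 10 or 16 after injection of 4T1 into the heart, at day 4 after injection of 4T1.2, and from a 4T1 tumour of the mammary fat pad at day 22; cultured cells of both lines were the further 2 groups. The lines are established tumour lines implanted in a host with its own marrow, vessels and stroma, and all wells carry 1 cell type label, that of metastatic tumour cells.

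To check that label, each well was called tumour where its Krt8 and Krt18 levels, summed as counts scaled to 1e6 per well (CPM), exceeded the sum of the blood cell genes Ptprc, Coro1a, Laptm5 and Rac2, and host otherwise. Of 1248 wells, 1218 passed the quality filter, and 501 of these were tumour wells and 717 host wells. Tumour wells numbered 54 in cultured 4T1, 137, 54 and 71 in 4T1 bone on days 4, 10 and 16, 85 in the fat pad tumour, and 53 and 47 in cultured and day 4 bone cells of 4T1.2. Host wells numbered 359, 41 and 119 in 4T1 bone on the same days, 10 in the fat pad tumour and 188 in 4T1.2 bone, and there were 0 in either culture. The median well of a group held between 2647148 and 3054736 counts. No animal, plate or culture was named, so each group is 1 sample without replicates, no test was made, and every interval covers counting error only.

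Collagens are matrix proteins built from alpha chains that wind into a helix, and each type is defined by its chains. Fibrillar types give bone, cartilage and stroma their tensile strength, whereas type IV forms the network of basement membranes under epithelium and around vessels. Types VI, VII, XII, XIV and XVI link or anchor these structures, and type XVIII, a basement membrane collagen with heparan sulphate chains, carries the endostatin fragment at its end. In bone marrow, type I is the product of osteoblasts and stromal cells, and types II, IX, X and XI are products of cartilage.

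Of the 44 genes, 30 reached 5 CPM over the summed tumour or host wells of at least 1 group, and 22 did so in tumour wells. By structural class these were 10 of 11 fibrillar chains, 4 of 6 type IV chains, 4 of 6 type VI chains, 7 of 9 fibril-associated chains, 2 of 3 short-chain network genes, Col7a1 as the single anchoring fibril chain, 1 of 4 transmembrane chains and 1 of 2 multiplexins. These counts rest in part on the 6 wells of very high collagen described below. Without them 20 of the 44 reached 5 CPM, and 16 did so in tumour wells. The chains that no longer did were Col1a2, Col3a1, Col5a2, Col6a3, Col9a1, Col9a2, Col10a1, Col11a1, Col11a2 and Col27a1, which left 4 of 11 fibrillar chains, 3 of 6 type VI chains, 5 of 9 fibril-associated chains and 1 of 3 short-chain network genes. In tumour wells Col1a2, Col3a1, Col5a2, Col5a3, Col6a3 and Col11a1 were those no longer at 5 CPM. Among the chains kept, Col1a1 reached 5.28 CPM at most, and Col2a1 10.9 CPM, or 5.22 CPM in tumour wells. Low levels of these 2 genes moved with the well number, as described below.

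Just inside the level were Col4a6 at 6.18 CPM, Col5a3 at 6.65 CPM and Col20a1 at 6.91 CPM, and just outside it was Col24a1 at 4.36 CPM. The other genes below 5 CPM in every sum were Col4a3, Col4a4, Col6a5, Col6a6, Col8a2, Col13a1, Col15a1, Col19a1, Col22a1, Col23a1, Col25a1, Col26a1 and Col28a1.

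Summed over all 44 chains, the median tumour well held 547 CPM in cultured 4T1, 763, 723 and 1103 CPM in 4T1 bone on days 4, 10 and 16, and 881.0 CPM in the fat pad tumour. In 4T1.2 the median was 531 CPM in culture and 449 CPM in day 4 bone. Host wells were far lower, with medians of 6.51, 10.1 and 27.3 CPM in 4T1 bone on days 4, 10 and 16, 26.9 CPM in the fat pad tumour and 34.0 CPM in 4T1.2 bone. The typical tumour well thus held far more collagen message than the typical host well, and a few wells stood far above both.

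**Figure D1:**
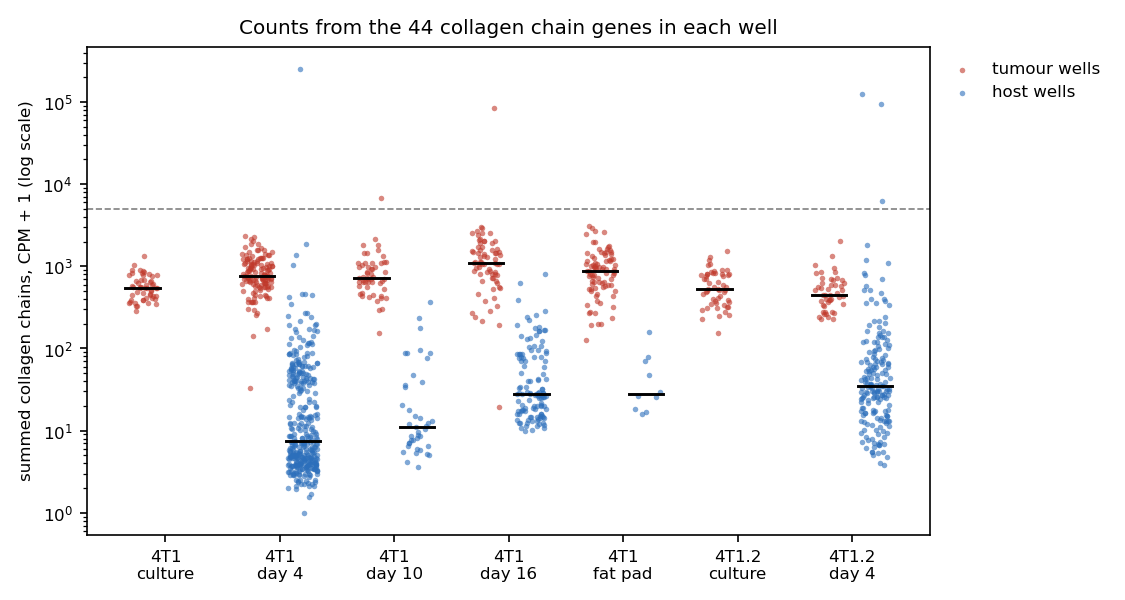
Summed CPM of the 44 collagen chain genes in each well (vertical axis, log scale, 1 CPM added), by group, with tumour wells in red and host wells in blue; black bars are medians over wells and the dashed line marks 5000 CPM. The median tumour well lies between 449 and 1103 CPM, and 6 wells lie above 5000 CPM.

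Collagen genes took more than 5000 CPM in 6 of the 1218 wells, and the next well had 3070 CPM. The highest was well 101 of 4T1 day 4, a host well in which 25.1% of all counts were collagen. Its Col1a1 and Col1a2, the chains of bone type I collagen, stood at 146982 and 95149.5 CPM, and 6 of 8 osteoblast markers, among them the osteocalcin genes Bglap and Bglap2, were at 50 CPM or more. So were 4 of 9 fibroblast markers, Pdgfra, Dcn, Lum and Lepr. Wells 207 and 83 of 4T1.2 day 4 were led by Col2a1, the cartilage fibril chain, at 86266 and 59595 CPM, and both had 5 of 5 chondrocyte markers at that level. Well 207 also held 3967 CPM of Col10a1, the chain of hypertrophic cartilage, of which well 83 held 0. Osteoblast markers were at 50 CPM or more in both as well, 4 of 8 in well 207 and 6 of 8 in well 83. Pan-haematopoietic markers were present beside the cartilage genes in both, 9 of 10 in well 207 and 6 of 10 in well 83. B cell markers were at that level too, 6 of 8 in well 207 and 8 of 8 in well 83, as were 6 of 8 neutrophil markers in each.

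Well 39 of 4T1 day 16 was a tumour well by the keratin rule, with 49.2 CPM of keratin against 32.4 CPM of blood genes. It held 43355 CPM of Col1a1 and 6 of 9 fibroblast markers. Well 78 of 4T1 day 10, also a tumour well at 53.0 against 19.5 CPM, had 7 of 7 endothelial markers and was led by Col4a1 at 2995 CPM. Well 140 of 4T1.2 day 4, a host well, was led by Col3a1, a stromal fibril chain, at 1925 CPM, with 3 of 9 fibroblast markers (Dcn, Lum and Cxcl12) at 50 CPM or more and Pdgfrb, Lepr, Thy1 and Dpt at 0. It also had 9 of 10 pan-haematopoietic, 6 of 8 B cell and 6 of 6 erythroid markers at that level. In each of these 6 wells, 0 of the 6 tumour epithelium markers reached 50 CPM, against the label of tumour cell, and results that rest on them are given with and without them. They held 97.1% of all host collagen counts at 4T1 day 4, 92.7% at 4T1.2 day 4, 47.5% of the tumour collagen counts at day 16 and 17.1% at day 10. One further library stood apart by depth: well 188 of 4T1 day 16 had 34104356 counts, 14.7% of all tumour-well counts of that day.

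**Figure D2:**
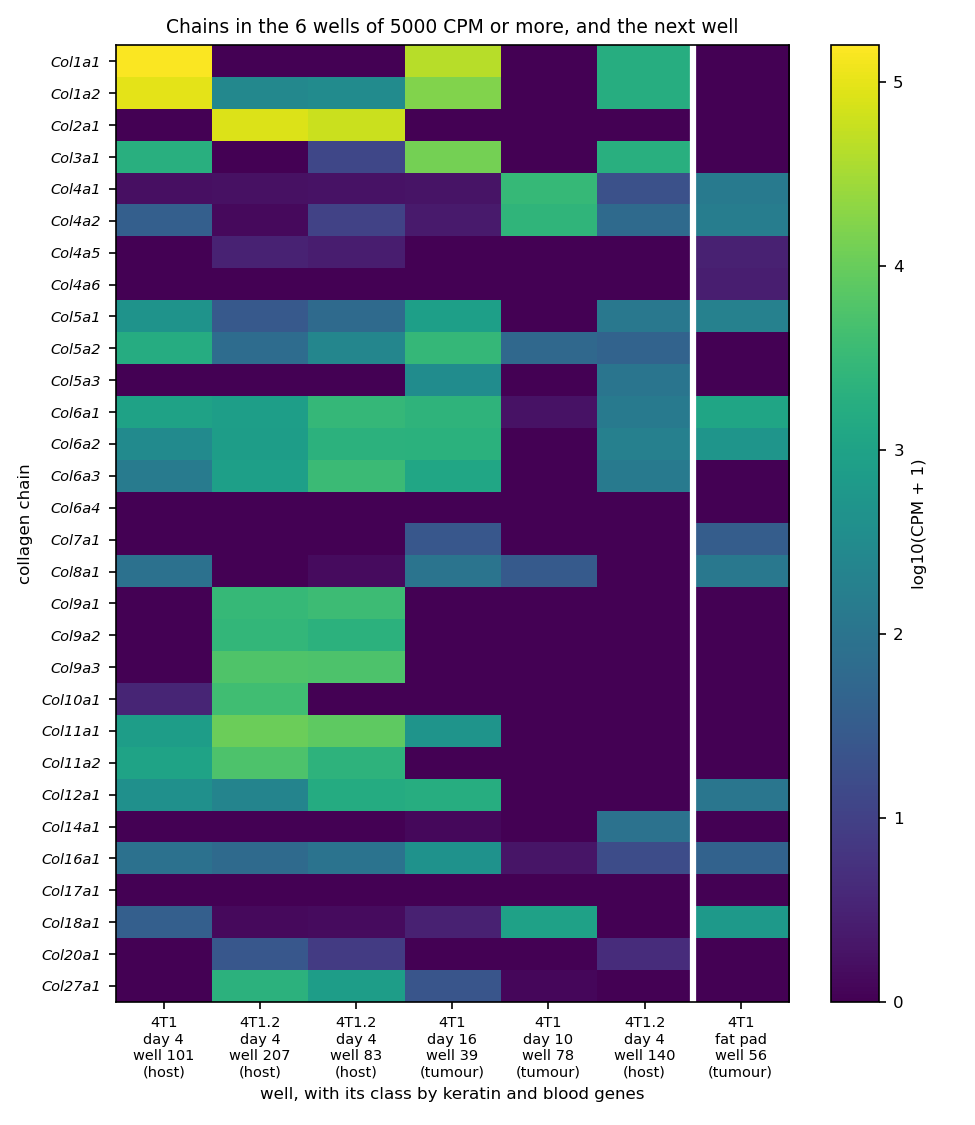
Level of the 30 named collagen chains (rows) in the 6 wells above 5000 CPM and, right of the white line, in the next highest well; colour is log10 of CPM plus 1. Col1a1 and Col1a2 lead well 101, Col2a1 leads wells 207 and 83, Col4a1 leads well 78, and the next well, at 3070 CPM in all, is led by Col6a1.

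Low counts of the same leading chains followed well numbers. In 4T1.2 bone, all passing wells numbered 1 to 72 had over 1 CPM of Col2a1, with medians of 16.6 to 19.1 CPM per block of 24, whereas medians were 0 in the 4 blocks from well 97 to well 192 and 7.83 to 9.54 CPM from well 193 on. In 4T1 at day 4, Col1a1 had block medians of 23.6 CPM in wells 73 to 96 and 7.82 to 21.2 CPM in wells 217 to 312, and 0 in every other block. Levels of these 2 genes near 20 CPM in those groups move with the well number, and the labels name no plate.

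Col4a1, a type IV chain found in most tumour wells of every group, over summed wells, stood at 188 CPM in cultured 4T1 cells, 129, 194 and 187 CPM in bone (days 4, 10 and 16) and 184 CPM in the fat pad tumour, with 195 and 98.2 CPM in cultured and day 4 bone cells of 4T1.2. The exact 95% Poisson interval of the first of these was 186 to 190 CPM. Single wells ran from 58.4 through a median of 177 to 429 CPM in 4T1 culture, and from 0.386 through 119 to 488 CPM at day 4, so the groups overlapped widely. It was at 20 CPM or more in 85.9% to 100% of tumour wells of every group. At day 10 the endothelial well 78 held 38.5% of the Col4a1 counts, and without it the group stood at 122 CPM. Col4a2, the partner chain in the same helix, stood at 134 CPM in cultured 4T1 cells, 79.6, 145 and 87 CPM in bone (days 4, 10 and 16) and 104 CPM in the fat pad tumour, with 89.1 and 62.3 CPM in cultured and day 4 bone cells of 4T1.2. Without well 78 its day 10 level was 84.0 CPM.

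The 2 genes sit head to head on chromosome 8 (GRCm38), Col4a1 from 11198423 to 11312826 on the reverse strand and Col4a2 from 11312805 to 11449287 on the forward strand. Their first exons share 22 bases at chr8:11312805-11312826 (RefSeq, GRCm38.p6, forward strand), shown because the pair starts from this single stretch and reads of it cannot be assigned without strand. No part of it is in capitals.
Col4a2: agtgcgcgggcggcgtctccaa
Over tumour wells without the 6 high-collagen wells, Spearman's rho between the pair was 0.601 and 0.664 in the cultures of 4T1 (54 wells) and 4T1.2 (53 wells). It was 0.208, 0.419 and 0.438 in 4T1 bone on days 4, 10 and 16 (137, 53 and 70 wells), 0.377 in 4T1.2 bone (47 wells) and 0.221 in the fat pad tumour (85 wells). Between Col4a1 and Col18a1, a type XVIII chain on chromosome 10, rho was 0.278 and 0.314 in the cultures of 4T1 and 4T1.2. It was 0.224, 0.480 and 0.412 in 4T1 bone on days 4, 10 and 16, 0.376 in 4T1.2 bone and -0.019 in the fat pad tumour. In bone the head to head pair was thus not set apart by its rho. The wells of a group share its sort and its depth range, so these are descriptions.

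Another type IV pair, Col4a5 and Col4a6, also lies head to head, on chromosome X, and was low. Col4a5 was at 8.47 CPM among cultured 4T1 wells and 22.9 CPM among cultured 4T1.2 wells, 10.6, 6.04 and 39.7 CPM in 4T1 bone on days 4, 10 and 16, 8.9 CPM in 4T1.2 bone and 15.2 CPM in the tumour of the fat pad. The deepest well, 188, held 44.6% of the day 16 counts, and day 16 stood at 25.8 CPM without it. In cultured 4T1.2 the gene was at 20 CPM or more in 28 of 53 wells, with a median of 22.4 CPM, against medians of 1.26 CPM in 4T1 culture and 0 at day 4. Col4a6 reached 5 CPM in tumour wells at day 16 only, where well 180 held 75.3% of its counts.

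Col18a1, the endostatin-bearing multiplexin, was the most abundant chain per exon length in 4T1 tumour wells of day 4 and day 10, at 34.4 and 36.3 CPM per kilobase. Over summed wells it stood at 76.6 CPM in cultured 4T1 cells, 242, 255 and 366 CPM in bone (days 4, 10 and 16) and 181 CPM in the fat pad tumour, with 124 and 96 CPM in cultured and day 4 bone cells of 4T1.2. Wells ranged from 0 through a median of 44.1 to 246 CPM in 4T1 culture and from 0.489 through 191 to 715 CPM at day 4, so the median day 4 well lay above most culture wells while the ranges overlapped. In the fat pad the wells were split, with 54 of 85 (63.5%, exact binomial interval 52.4 to 73.7) at 20 CPM or more and a median of 96.6 CPM, against 126 of 137 (92.0%, 86.1 to 95.9) at day 4. Well 188 held 30.0% of the day 16 counts, and without it Col18a1 was at 301 CPM.

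Col8a1, a short-chain network collagen of vessel walls and basement membranes, was at 88.9 CPM among cultured 4T1 wells and 79.2 CPM among cultured 4T1.2 wells, 133, 121 and 208 CPM in 4T1 bone on days 4, 10 and 16, 66.3 CPM in 4T1.2 bone and 156 CPM in the tumour of the fat pad. Well 188 held 40.7% of the day 16 counts, and without it that group stood at 145 CPM. Between 74.1% and 88.3% of tumour wells in each group had 20 CPM or more, so the gene was found across groups at a similar frequency.

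Type VI collagen, the beaded filament of most connective tissue, was represented mainly by Col6a1. Its level was 10.5 CPM in cultured 4T1 cells, 125, 70.4 and 303 CPM in bone (days 4, 10 and 16) and 158 CPM in the fat pad tumour, with 1.5 and 17.3 CPM in cultured and day 4 bone cells of 4T1.2. In 4T1 culture the wells ran from 0 through a median of 0 to 176 CPM, and 1 well held 56.4% of all counts. At day 4 they ran from 0 through 102 to 592 CPM, and at day 16 from 0 through 88.1 to 2357 CPM. In bone, then, most 4T1 wells had the gene and most culture wells did not, with overlap between the groups. Of the wells, 104 of 137 (75.9%, 67.9 to 82.8) at day 4 had 20 CPM or more against 7 of 54 (13.0%, 5.37 to 24.9) in culture. After thinning every well to 500000 counts, 104 of 135 wells at day 4 and 9 of 53 in culture had 10 reads or more. In 4T1.2 the shares were 10 of 47 wells (21.3%, 10.7 to 35.7) at day 4 and 0 of 53 (up to 6.72%) in culture. The deepest well held 46.4% of the day 16 counts, and that group stood at 190 CPM without it and at 151 CPM without well 39 as well.

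Col6a1 lies on the reverse strand of chromosome 10 from 76708792 to 76726168 (GRCm38), and it was the single member with the motif TGANTCA, the core bound by AP-1 factors, in its promoter window, of 35 members with a window. The motif is in 6.75% of all 32851 windows and 7.82% of the 27025 genes with one, a larger share than among members. The 29 bases around it, chr10:76726117-76726145 on the reverse strand (RefSeq, GRCm38.p6), are shown with the motif in capitals, because this chain had the largest ratio between 4T1 day 4 bone and culture of the measured chains.
Col6a1: tgctgatgctgTGACTCActcagctttga
The motif's first base is 90 bases before the RefSeq start, while GENCODE M21 starts the gene 124 bases before RefSeq, so by that annotation the motif is inside the first exon. The match is a description of the letters and not a binding site.

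The partner chains of type VI were low or absent. Col6a2, which lies 85161 bases from Col6a1 on the same strand, was at 3.66 CPM among cultured 4T1 wells and 0.0624 CPM among cultured 4T1.2 wells, 10.8, 1.2 and 53 CPM in 4T1 bone on days 4, 10 and 16, 3.57 CPM in 4T1.2 bone and 29.5 CPM in the tumour of the fat pad. Well 39 alone held 59.2% of its day 16 counts, and 21.9 CPM remained without it. The median well of every group was under 1 CPM, and 23 of 137 day 4 wells had 20 CPM or more. Col6a3, the longest partner chain, was at 0.204 CPM in tumour wells at day 4 and at 18.5 CPM at day 16, of which 0.136 CPM remained without well 39.

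Of the linking collagens, Col16a1 was at 16.9 CPM in cultured 4T1 cells, 68.1, 43.8 and 76.5 CPM in bone (days 4, 10 and 16) and 43.5 CPM in the fat pad tumour, with 44.8 and 89.8 CPM in cultured and day 4 bone cells of 4T1.2, the last being its highest level in any group. Wells ran from 0 through 8.81 to 60.7 CPM in 4T1 culture and from 0 through 55.5 to 321 CPM at day 4. Col7a1, the anchoring fibril chain that ties epithelium to dermis, was at 30.5 CPM among cultured 4T1 wells and 17.9 CPM among cultured 4T1.2 wells, 25.5, 103 and 71.6 CPM in 4T1 bone on days 4, 10 and 16, 36.6 CPM in 4T1.2 bone and 71.3 CPM in the tumour of the fat pad. Its wells ran from 0 through 3.32 to 603 CPM at day 4 and from 0 through 57.9 to 476 CPM at day 10, where 44 of 54 wells (81.5%, 68.6 to 90.7) had 20 CPM or more against 42 of 137 (30.7%, 23.1 to 39.1) at day 4. The median day 10 well was therefore higher, although the highest well of the pair of groups was at day 4.

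Col12a1, a fibril-associated chain of stressed tissue, had its highest level at day 16. It was at 2.85 CPM in cultured 4T1 cells, 1.49, 8.39 and 72.6 CPM in bone (days 4, 10 and 16) and 8.88 CPM in the fat pad tumour, with 0.0284 and 0.151 CPM in cultured and day 4 bone cells of 4T1.2. At day 16 the wells ran from 0 through a median of 1.17 to 1709 CPM, so the level rested on a minority of wells. Well 39 held 36.0% of the day 16 counts, and 47.1 CPM remained without it. It was at 20 CPM or more in 26 of 71 wells (36.6%, 25.5 to 48.9) at day 16, in 3 of 137 (2.19%, 0.454 to 6.27) at day 4 and in 7 of 85 (8.24%, 3.38 to 16.2) in the fat pad. Col5a1, the chain that seeds fibrils of type I, was between 14.6 and 59.8 CPM in all groups, highest at day 16, where 47.1 CPM remained without well 39. Col17a1, the hemidesmosome collagen, reached 5 CPM in 4T1 culture only, at 7.73 CPM with 55.4% of counts in 1 well, and had 0 counts at day 10.

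**Figure D3:**
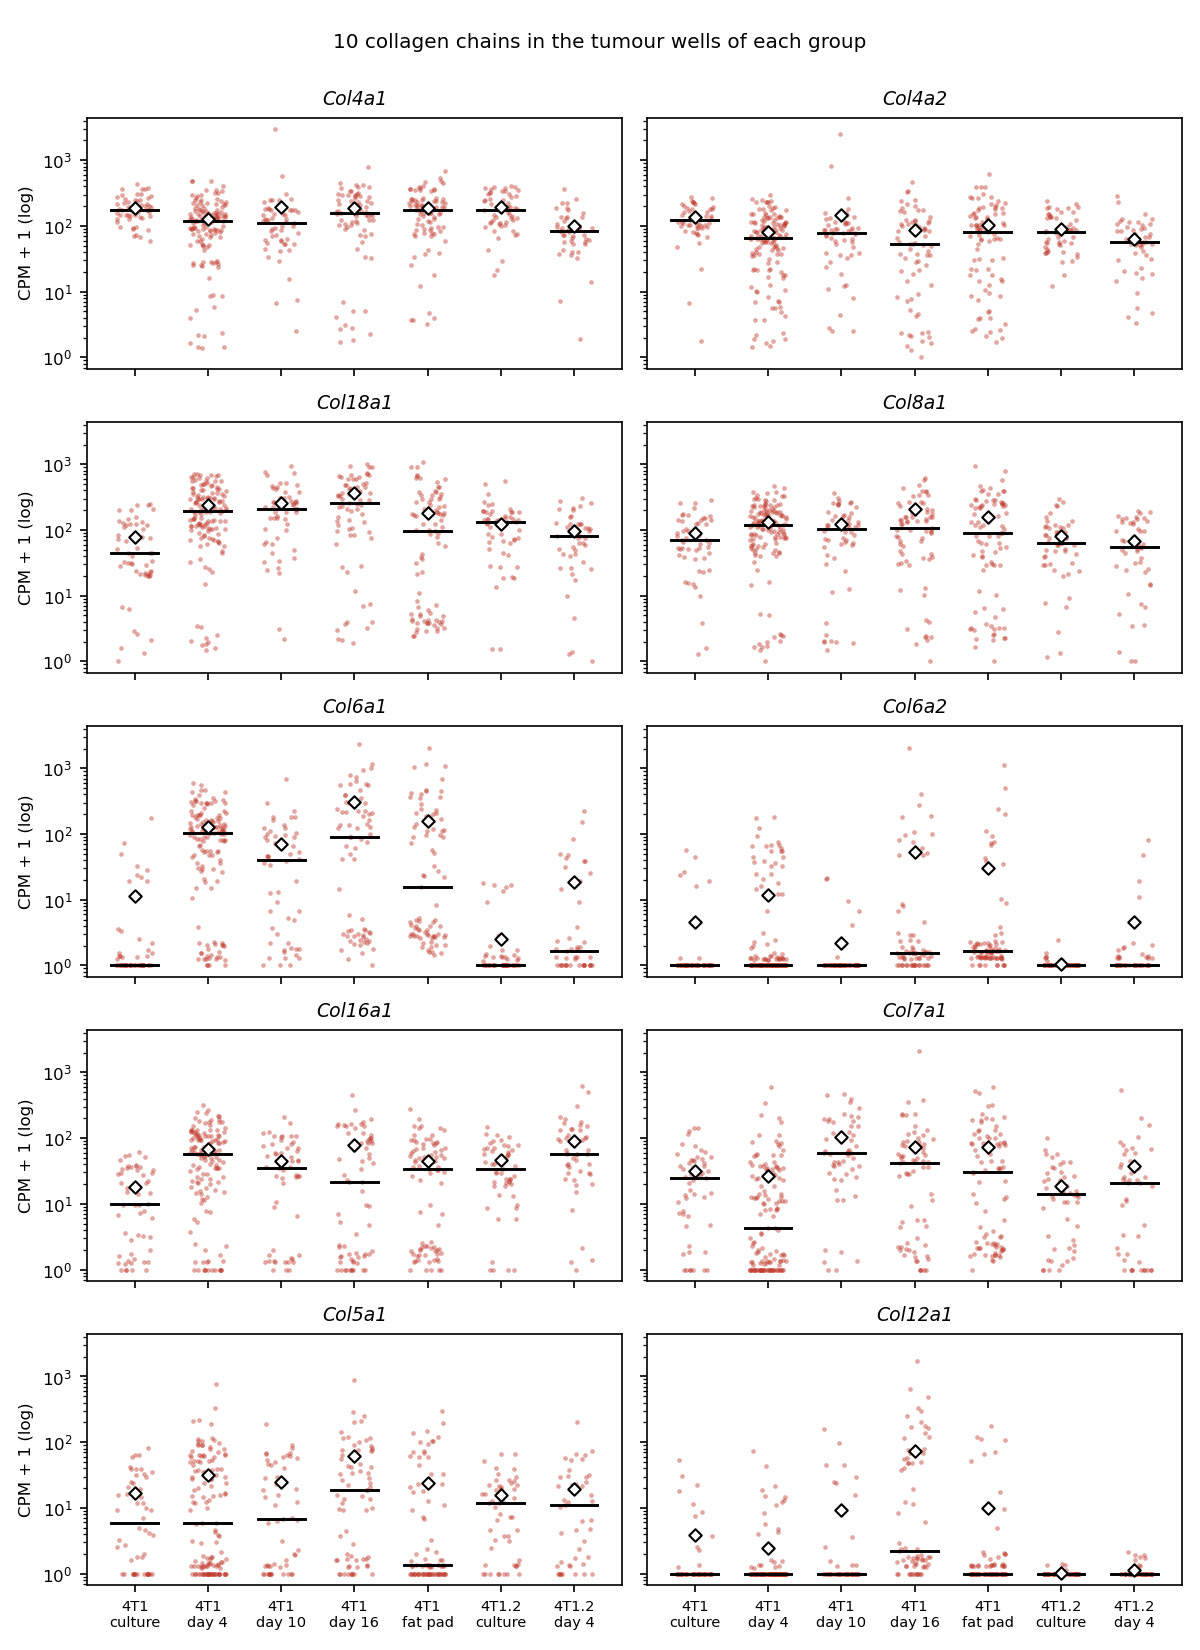
CPM of 10 collagen chains in each tumour well of the 7 groups (log axis, 1 CPM added); black bars are medians over wells and open diamonds the level over summed counts. Col4a1 has medians between 82.4 and 177 CPM in every group, whereas Col6a1 has a median of 0 in both cultures and of 102 CPM at 4T1 day 4.

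Single wells carried several chains together. Of the 8 chains Col4a1, Col4a2, Col5a1, Col6a1, Col7a1, Col8a1, Col16a1 and Col18a1, the median tumour well had 5 at 20 CPM or more in cultured 4T1, the fat pad tumour and both groups of 4T1.2, and 6 on each day in 4T1 bone, without the high-collagen wells. At least 4 were found in 128 of 137 wells at day 4 and in 47 of 54 in 4T1 culture. All 8 were found in 8, 9 and 5 wells of 4T1 bone on days 4, 10 and 16, in 5 of the fat pad tumour, in 1 of cultured 4T1, in 2 of 4T1.2 bone and in 0 of cultured 4T1.2. Col6a1 and Col6a2 had Spearman's rho of 0.350 over the 137 day 4 wells, where 22 of the 23 wells with Col6a2 at 20 CPM or more also had Col6a1 at that level. In 4T1 the rho was 0.343 in culture, 0.096 and 0.330 on days 10 and 16 and 0.302 in the fat pad tumour. In 4T1.2 it was -0.018 in culture and 0.197 in bone. Col6a1 and Col18a1, which are not partner chains, had 0.306 over the same day 4 wells.

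The comparison of day 4 bone with culture concerns the earliest sampled stage in bone. Differences are log2 ratios of CPM after adding 5 CPM to both sides, which understates them for low genes, and a gene is called higher or lower at 2-fold or more with at least 5 CPM on either side. In 4T1 at day 4, Col6a1 was higher by 3.07, Col16a1 by 1.74 and Col18a1 by 1.6 on this scale, and the 2 main type IV chains differed by -0.53 and -0.71, under 2-fold. Of 12 measured chains 3 were higher and 0 lower, while over all genes measured 5.18% were higher and 3.6% lower. The median over the measured chains was 0.68 against -0.06 over all genes. In these tumour wells 11 of 137 had at least 3 pan-haematopoietic markers at 50 CPM or more, and 0 of 54 in culture. At least 3 neutrophil markers were at that level in 137 of 137 and in 0 of 54. That share was 54 of 54 at day 10, 60 of 71 at day 16 and 0 of 85 in the fat pad tumour. In 4T1.2 it was 47 of 47 in day 4 bone and 12 of 53 in culture.

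In 4T1.2 the same step showed 1 chain higher and 1 lower of 10, where 6.17% and 3.15% of all genes were called. Col6a1 was higher by 1.78, from 1.5 to 17.3 CPM, and Col4a5 lower, at 8.90 against 22.9 CPM and just past 2-fold. Col16a1 differed by 0.93 and Col4a1 by -0.96, both just under 2-fold, and Col18a1 differed by -0.35 where 4T1 had 1.6. This difference between the lines was not tested. Pan-haematopoietic markers, 3 or more at 50 CPM, were found in 26 of the 47 tumour wells of 4T1.2 at day 4, and 22 of the 47 met a stricter keratin rule. With those 22 wells, 4 of 11 measured chains were higher, and Col6a2, Col9a1 and Col16a1 joined Col6a1. The share of all genes called with those wells was not computed, so this count has no share to be set against.

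From day 4 to day 10 in 4T1 bone, Col7a1 was higher by 1.82 and Col12a1 by 1.04, and Col6a2 lower, at -1.35. That is 2 of 12 chains higher and 1 lower, against 4.64% and 2.73% of all genes. Col4a1 and Col4a2 differed by 0.57 and 0.83 with the endothelial well 78 included, and the same 3 chains were called without it, against 3.63% higher and 2.94% lower of all genes. Col12a1 was under 2-fold when wells were weighted equally, and also without its highest well, number 40, which held 37.9% of its day 10 counts. In day 10 tumour wells 11 of 54 had at least 3 pan-haematopoietic markers.

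Day 16 had the most calls against day 4. Of 20 measured chains 13 were higher and 0 lower, where 10.2% and 9.28% of all genes were called. Col1a1 (667 against 5.28 CPM), Col3a1 (198 against 0.0953), Col1a2 (251 against 3.52), Col5a2, Col6a3 and Col11a1 were among them, and these 6 rested on well 39: without it Col1a1 was at 3.38 CPM, Col1a2 at 1.09, Col3a1 at 0.827, Col5a2 at 0.197, Col6a3 at 0.136 and Col11a1 at 0.0175. Without the high-collagen wells 6 chains were higher, Col4a5, Col4a6, Col6a1, Col7a1, Col12a1 and Col20a1, and 0 lower, against 9.84% and 9.38% of all genes. Without well 188 too, 4 chains were higher, Col4a5, Col4a6, Col7a1 and Col12a1, and 0 lower, against 9.23% and 9.31%. The Col4a5 ratio was 1.00 there and 0.98 without well 188 alone, so its call was lost in that setting, as was that of Col6a1 at 0.58. Well 188 alone held 95.9% of the Col20a1 counts. Col12a1, at 3.58 with all wells and 3.22 without both, and Col7a1, at 1.33 with all wells, were called under each of the alternatives that left out wells, while Col4a6 was at 0.30 without well 180.

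**Figure D4:**
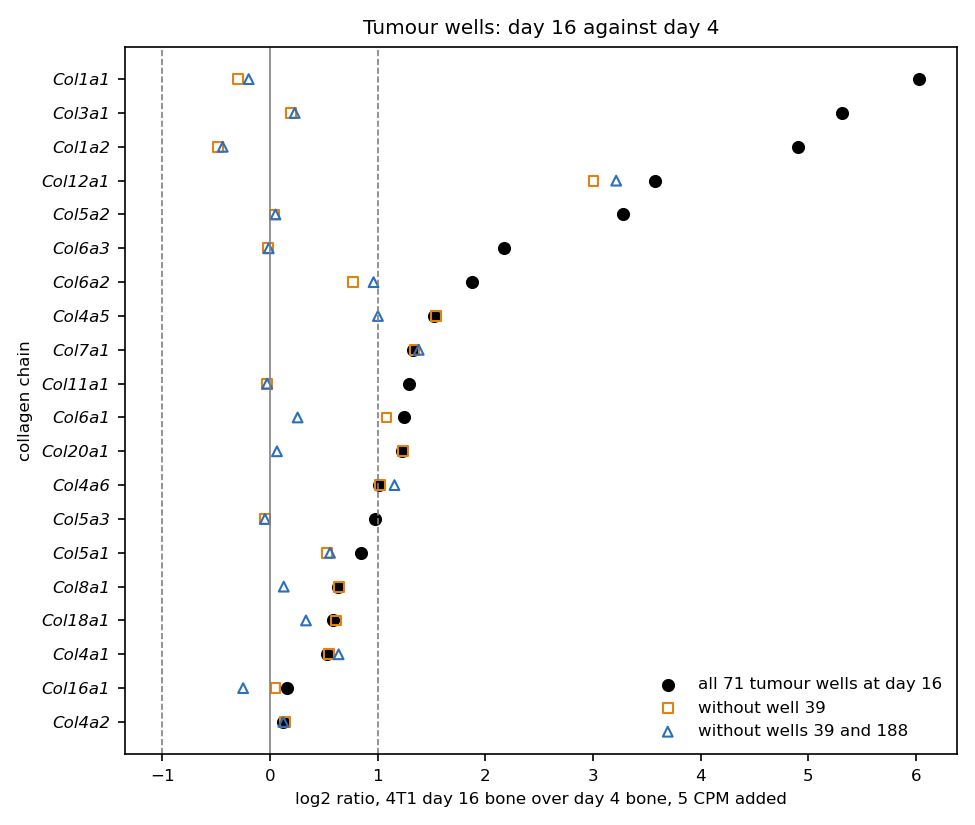
Log2 ratio of 4T1 day 16 to day 4 bone in tumour wells for each named chain measured in that comparison (horizontal axis, 5 CPM added; dashed lines mark 2-fold), with all wells, without well 39 and without wells 39 and 188. Col1a1 lies at 6.03 with all wells and at -0.20 without both, and Col12a1 at 3.58 and 3.22.

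The fat pad tumour against culture concerns the primary site. Col6a1 was higher by 3.39, Col6a2 by 2.00, Col18a1 by 1.19, Col16a1 by 1.15 and Col7a1 by 1.11, which makes 5 of 12 higher and 0 lower, where 10.7% and 13.3% of all genes were called. The 3 chains called in 4T1 day 4 bone were among these 5; both comparisons use the same culture wells. Col6a1 in the fat pad ran from 0.464 through a median of 14.4 to 2014 CPM, and 42 of 85 wells had 20 CPM or more, so its sum lay above day 4 while its median well lay below. Direct comparison of day 16 bone with the fat pad gave 10 of 20 chains higher and 0 lower, against 7.48% and 4.23% of all genes. Without the high-collagen wells 3 were higher and 0 lower, Col4a5, Col12a1 and Col18a1 (7.11% and 4.43% of all genes). Without well 188 too, 1 was higher and 0 lower (6.34% and 3.76%), Col12a1, at 55.3 against 8.88 CPM. Col1a2, Col3a1, Col6a3 and Col11a1 had 0 counts in the 85 fat pad tumour wells, which allows up to 0.0124 CPM.

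Between the lines in culture, Col16a1 was higher in 4T1.2 by 1.19 and Col4a5 by 1.05, and Col6a1 and Col17a1 lower, at -1.25 and -1.16. That is 2 higher and 2 lower of 10, where 3.62% and 4.98% of all genes were called. Both lower calls rested on single wells of cultured 4T1, which held 56.4% of the Col6a1 and 55.4% of the Col17a1 counts, and 0 were lower without each chain's highest well. In bone at day 4 the difference in Col6a1 was wider, at -2.54, and Col18a1 differed by -1.29, with 0 of 12 chains higher and 2 lower against 4.19% and 5.07% of all genes. With wells of the stricter keratin rule, Col6a1 was lower, Col18a1 was not called and Col9a1 was higher.

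Host wells had little of what the tumour wells had. At 4T1 day 4, 10 of 15 chains were lower in host than in tumour wells and 4 higher, where 17.0% and 19.6% of all genes were called. Col18a1 stood at 2.45 against 242 CPM, Col4a1 at 1.34 against 129 CPM and Col8a1 at 1.55 against 133 CPM. The 4 higher chains, Col1a1, Col1a2, Col3a1 and Col5a2, had 99.3% of their host counts each in well 101, and 0 were higher and 10 lower without it (19.5% and 17.1% of all genes). At day 10, 10 of 11 chains were lower and 1 higher (24.6% and 18.5% of all genes), with the same counts without well 78 (24.3% and 19.1%). At day 16, 19 of 21 were lower and 1 higher (23.9% and 17.9%). Without well 39, whose type I and III collagen counts there as tumour, 12 of 14 were lower and 1 higher (23.7% and 18.3%). The chain higher in host wells at day 10 and day 16 was Col14a1, and at day 10 it was not called without well 27.

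In 4T1.2 at day 4, 16 of 25 chains were higher in host wells and 8 lower, where 20.5% and 16.1% of all genes were called. Col2a1 at 831 against 5.22 CPM, Col11a1 at 108 against 0.713, Col9a3 at 66.3 against 0.519 and Col11a2 at 47.2 against 0.533 CPM had the highest ratios. Col10a1 was at 23.7 against 0.0504 CPM. Without wells 207, 83 and 140, 2 of 12 chains were higher, Col5a3 and Col6a4, and 9 lower, against 20.3% and 16.3% of all genes. Col5a3, a minor type V chain, was at 20 CPM or more in 9 of 188 host wells, up to 339 CPM. Col6a4 was in 5 of them, and well 50 held 75.2% of its counts. Outside the 6 high-collagen wells, well 85 of this group was the other well with at least 3 endothelial markers, and it was led by Col4a1 at 890 CPM.

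Col14a1, a fibril-associated chain known from tendon, skin and other fibrous stroma, was the member found across many host wells rather than in 1. Its host level in 4T1 bone was 0.290 CPM (0.258 to 0.325) at day 4, 7.76 CPM (7.25 to 8.29) at day 10 and 32.0 CPM (31.4 to 32.6) at day 16. It was 19.5 CPM (17.7 to 21.3) in host wells of the fat pad tumour and 0.628 CPM (0.559 to 0.702) in those of 4T1.2 bone (0.267 CPM without the high-collagen wells), against 0.0380 and 0.349 CPM in the tumour wells of day 10 and day 16. In the day 10 host wells, well 27 held 62.9% of the counts, in the fat pad host wells, well 25 held 83.6%, and in those of 4T1.2, well 140 held 58.2%. At day 16 the host wells ran from 0 through a median of 0.647 to 641 CPM, and 27 of 119 (22.7%, 15.5 to 31.3) had 20 CPM or more, against 0 of 71 tumour wells. All 27 also had 10 reads or more when thinned to 500000 counts.

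Of those 27 wells, 25 also had 50 CPM or more of C1qa, a complement subunit made by tissue macrophages, with a median C1qa of 5184 CPM, against 33 of the 92 other host wells. Dcn, a defining stromal gene, had a median of 0 in both sets. Over all 119 host wells of day 16 the median sum of the fibroblast markers was 0.863 CPM, so Dcn does not set the 27 wells apart. Among host wells with C1qa at 50 CPM or more, Col14a1 reached 20 CPM in 25 of 58 (43.1%, 30.2 to 56.8) at day 16, 3 of 14 (21.4%, 4.66 to 50.8) at day 10, 1 of 7 (14.3%, 0.361 to 57.9) in the fat pad, 0 of 12 (up to 26.5%) at 4T1 day 4 and 0 of 11 (up to 28.5%) at 4T1.2 day 4. The wells of a group may come from 1 animal, so these shares describe the sampled wells.

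**Figure D5:**
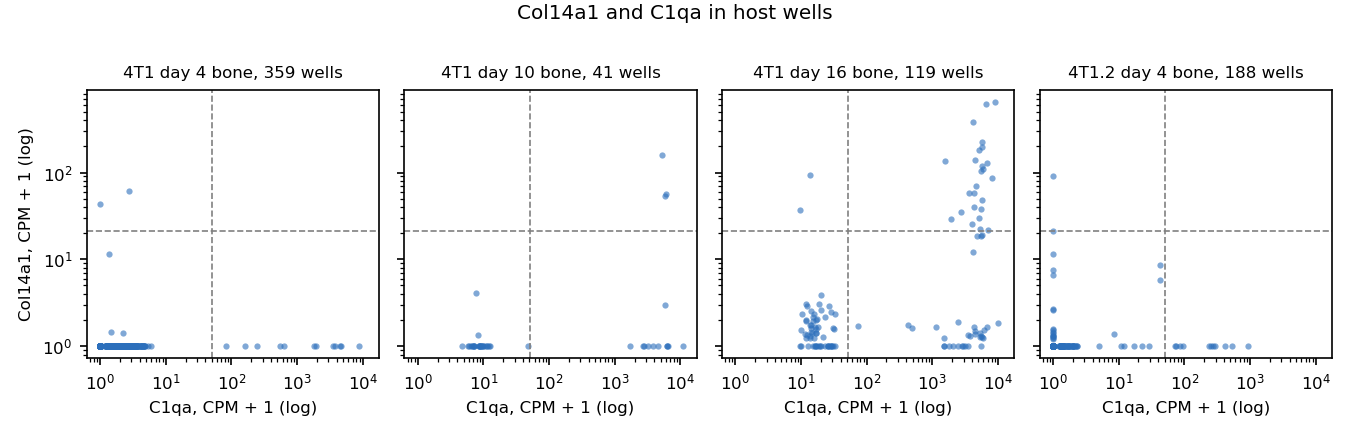
Col14a1 against C1qa in each host well of the 4 bone groups (both axes CPM plus 1, log scale; dashed lines at 20 and 50 CPM). At day 16, 25 of the 58 wells with C1qa at 50 CPM or more have Col14a1 at 20 CPM or more, and at day 4 none of 12 in 4T1 and none of 11 in 4T1.2.

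Genes that fold, process, bind or accompany collagen were counted on lists chosen by function. Of 20 folding and modification enzymes, 16 were measured in 4T1 day 4 bone against culture; 0 were higher and 1 lower, P4ha2, a prolyl hydroxylase subunit, at 11.1 against 34.4 CPM. Of 14 processing and crosslinking genes 8 were measured and 4 were higher: Loxl3, a lysyl oxidase relative, by 2.45 (75.4 against 9.65 CPM), Pcolce, an enhancer of procollagen cleavage, by 2.06 (390 against 89.8 CPM), Tgm2, a transglutaminase, by 1.79, and Sparc, a collagen-binding matrix protein, by 1.17. Over all genes measured there, 5.18% were higher and 3.6% lower. The fat pad against culture had 4 of 8 higher, Tgm2 by 3.92, Loxl3 by 2.52, Bmp1, the procollagen C-proteinase, by 1.42 and Pcolce by 1.28, and 2 lower, Loxl4 at -1.97 and Pcolce2 at -1.05, where 10.7% and 13.3% of all genes were called. In 4T1.2 at day 4 against culture 0 of 8 were higher or lower, and of 15 folding enzymes P4ha1, another prolyl hydroxylase subunit, was the 1 called, at 86.9 against 207 CPM (6.17% of all genes higher and 3.15% lower). In cultured 4T1.2 the same 4 genes as in 4T1 day 4 bone were higher than in cultured 4T1, Tgm2 by 2.41, Loxl3 by 2.16, Pcolce by 1.67 and Sparc by 1.12, 4 of 8 in all, where 3.62% of all genes were higher. Both comparisons share the cultured 4T1 wells.

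At day 16 against day 4, 5 of 19 measured folding enzymes were higher and 4 of 18 without the high-collagen wells, P4ha1, P4ha2, Plod2 and Fkbp14. Over all genes 10.2% were higher with all wells and 9.84% without those wells. Plod2, which hydroxylates lysines for stable crosslinks, was at 119 against 43.8 CPM. The processing list had 7 of 11 higher, but 2 of 8, Bmp1 and Tgm2, without the high-collagen wells. Lox and Loxl1, the classical crosslinking oxidases, were at 13.7 and 21.5 CPM at day 16 with all wells and at 0.0525 and 0.254 CPM without well 39, against 0.0222 and 0.00443 CPM at day 4. Of the collagen-associated matrix genes 11 of 16 were higher, and 4 of 9 without the high-collagen wells: Fn1 (3060 against 400.0 CPM with all wells), Thbs1, Tnc and Dcn, the last at 6.92 CPM without well 39 and 12.0 CPM with it. High levels of Fn1, Thbs1 and Tnc were not particular to bone: fat pad tumour wells held 2650, 627 and 62.6 CPM, and 0 CPM of Dcn. In the earlier step from culture to day 4, 1 of 8 of these matrix genes was called in 4T1: Thbs1, a thrombospondin, was lower at 101 against 545 CPM. Over all genes in that step 5.18% were higher and 3.6% lower.

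Among 11 collagen receptor genes, Itga1, an integrin subunit with a preference for type IV, was higher by 1.49 at 4T1 day 4 and by 2.06 in the fat pad, both against culture, and 1 of 6 measured receptors was called in each (5.18% and 10.7% of all genes higher). Itga2, the subunit with a preference for type I, was higher by 1.93 in 4T1.2 at day 4 against its culture, at 61.1 against 12.3 CPM. Cultured 4T1.2 had 3 of 6 measured receptors lower than cultured 4T1 and 0 higher, against 4.98% and 3.62% of all genes. These were Itga2 at -1.61, Itgb1, the shared beta subunit of the collagen-binding integrins, at -1.27 and Ddr1, a receptor kinase that also binds type IV, at -1.18. Ddr2, a receptor kinase for fibrillar collagen, lay between 74.9 and 120 CPM in the tumour wells of all 7 groups and was called in none of the comparisons between them. Lair1, an inhibitory collagen receptor of leukocytes, was at 169 CPM in host wells of day 16 and at 1.72 CPM in tumour wells.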

How the data were processed

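Single cells were profiled by a modified Smart-seq2 protocol, per the labels, which also describe a qPCR screen of wells for mCherry. The authors deposited 1 table of raw read counts per gene symbol, with 40840 rows and 1248 wells. The submitters' processing notes name STAR 2.6.0c, featureCounts 1.6.2 and the mouse build mm10, beside Trim Galore 0.6.6, FastQC 0.11.7 and Seurat 3.1.2; their settings, the gene annotation and the use of strand are not given in the sources used here. Without strand, reads of overlapping genes cannot be told apart.

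The 78 spike-in rows (0.670% of counts), 2 reporter rows (0.187%) and 4 rows of repeated symbols (0.0149%) were left out, and 30 wells with under 1000 genes, under 50000 counts or over 25% mitochondrial counts were removed. No doublet caller was run on these sorted wells. Counts were summed over the tumour or host wells of a group and scaled to CPM of the summed total, with exact 95% Poisson intervals; shares of wells have exact binomial intervals, and a level of 0 allows up to 3 counts. Ratios are log2 after adding 5 CPM, among genes with 5 CPM or more on either side. Shares were also taken after thinning wells to 500000 counts. The stricter rule asks for 100 CPM of keratin or blood genes and a 10-fold excess over the other.

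Members reaching 5 CPM in the summed tumour or host wells of a group with 5 wells or more were named, and from other lists up to 4 genes furthest in each direction. The members, lists and markers were chosen with earlier results of these data known, and the groups of wells with high collagen or the greatest depth after the levels were seen. The 8 chains counted together per well were also chosen after their values were seen. Gene positions are from GENCODE M21 (GRCm38) and promoter windows, from 250 bases before to 50 after a start, from RefSeq. The scripts used Python 3.11.15 with pandas 2.3.3, numpy 2.4.6, scipy 1.17.1 and matplotlib 3.10.9. R 4.3.3 with edgeR 4.0.16 and DESeq2 1.42.0 served for scaling factors only. On simulated data only the 2-fold calls and the intervals were tested, with Poisson or binomial counts and no variation between wells. Alternatives were other scalings, pseudocounts and minimum levels, unfiltered, strictly classed or equally weighted wells, and leaving out wells.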

Additional observations from a re-analysis of the deposited data

How the results depend on the processing

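Each of 24 counts of chains called at 2-fold or more was recomputed under 10 alternatives, and the 6 counts that use day 16 tumour wells also without the deepest well, alone and with the high-collagen wells. Leaving out either or both was chosen after seeing the data. Of 252 recomputed counts 208 stayed within 1.5 times the reported one and 44 did not. Of 1196 recomputed ratios of called, named chains, 163 were under 2-fold, and 40 of these also changed sign. A sign cannot change with another added CPM or another minimum level. With no minimum level 0 counts could move, because a 2-fold call after adding 5 CPM already needs 5 CPM on the higher side. Those 24 recomputed counts are among the 208 by construction. Without the deepest well alone, 0 counts moved past 1.5 times. Where a count moved with the scaling, added CPM, minimum, filter or weighting, the cause was not tested; leaving out wells, by construction, removes what those wells held. No paired analysis was possible because each group is 1 sample and a well number only names a well. Depth limits chains under 5 CPM, which rest on few wells. The share of all genes called was recomputed only in settings that left out the high-collagen wells.

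For 4T1.2 at day 4 against its culture, 2 chains were lower with TMM factors and 0 with DESeq2 size factors, and 2 were higher with no filter on wells. With 1 CPM added in place of 5, 5 were higher and 1 lower in 4T1 at day 4 against culture, 2 higher in 4T1.2 at day 4 against culture, 1 lower in the fat pad against culture, and 1 higher and 4 lower in 4T1.2 against 4T1 at day 4. With a minimum of 20 CPM, 0 were higher in 4T1.2 at day 4 against culture, 1 higher and 0 lower at day 10 against day 4, and 0 lower in 4T1.2 against 4T1 culture; in host against tumour wells 2 were higher at day 4, 0 at day 10 and 8 in 4T1.2. With wells weighted equally, 2 were higher and 0 lower in 4T1.2 at day 4 against culture, 1 higher at day 10 against day 4, and 1 lower in 4T1.2 against 4T1 culture.

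With strict well classes, 4 were higher in 4T1.2 at day 4 against culture, 1 higher and 1 lower in 4T1.2 against 4T1 at day 4, and 6 higher at day 16 against day 4, where the ratios of Col1a1, Col1a2, Col6a3 and Col11a1 became -0.2994, -0.5002, -0.0253 and -0.02862. Against the fat pad 3 were higher at day 16, with Col1a1 at -0.1645 and Col5a3 at -0.003184. Of host against tumour wells 0 were higher at day 4, with Col1a1, Col1a2, Col3a1 and Col5a2 at -0.1895, -0.1383, -0.01016 and -0.0009646, and 12 were lower at day 16, with Col11a1 at 0.001156.

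With the highest well of each chain left out, 1 was higher and 2 lower at day 10 against day 4, 3 higher at day 16 against day 4 (Col1a1 -0.1321, Col1a2 -0.3714, Col11a1 -0.02186), 2 higher at day 16 against the fat pad and 0 lower in 4T1.2 against 4T1 culture. In host against tumour wells 0 were higher at day 4 (Col3a1 -0.004264) and at day 10, 11 lower at day 16 (Col11a1 0.0005565) and 9 higher in 4T1.2.

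Without the high-collagen wells, 6 were higher at day 16 against day 4, with Col1a1, Col1a2, Col6a3 and Col11a1 at -0.2958, -0.4841, -0.01905 and -0.02783, and 3 against the fat pad, with Col1a1 at -0.1856 and Col5a3 at -0.002772. In host against tumour wells 0 were higher at day 4 (Col1a1 -0.1107, Col1a2 -0.08394, Col3a1 -0.0103) and 12 lower at day 16 (Col1a2 0.005272, Col11a1 0.001459). In 4T1.2 host wells 2 were higher, with Col1a1, Col1a2 and Col3a1 at -0.09747, -0.1105 and -0.01802 and Col6a2, Col9a1 and Col9a2 at -0.6729, -0.7307 and -0.1271. Without the deepest well too, 4 were higher at day 16 against day 4, with Col1a1, Col1a2, Col6a3 and Col11a1 at -0.1981, -0.4395, -0.01239 and -0.02695, and 1 against the fat pad, with Col1a1 at -0.08791 and Col5a3 at -0.0003637, and 12 were lower in day 16 host wells, with Col11a1 at 0.0005777.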
